A study of Mus musculus with 2 samples.

Results

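The transcription factors examined here are 8 genes of the network that directs Th17 cells, the helper T cells that make IL-17. They are Rora, Maf, Batf, Irf4, Runx1, Runx3, Cbfb and Gfi1, taken by gene name from a deposited table of 22036 named genes. All 8 were present on 1 row each and passed a minimum mean of 1 CPM (a gene's counts scaled to the depth of its library), as did 10597 genes in all. Mouse CD4 T cells from spleen and lymph nodes of wild-type animals were activated on plates carrying 10 μg/mL of anti-CD3 and 5 μg/mL of anti-CD28, with antibodies to IFNγ and IL-4, and lysed after 24 h. Both cultures received 20 ng/mL of IL-6. The pTh17 culture, labelled pathogenic Th17, also received 20 ng/mL of Activin-A, a TGF-β family ligand, and the npTh17 culture, labelled non-pathogenic Th17, received 2 ng/mL of TGFβ1 in its place. The labels name no strain, age or number of animals, and describe no cells cultured without IL-6.

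In Th17 cells, BATF pairs with JUN proteins and binds DNA together with IRF4 at composite sites, which opens chromatin for the factors that follow. RORα, a nuclear receptor, acts with them on the IL-17 genes, and c-MAF, a basic leucine zipper factor, drives IL-10 and IL-21 in several helper lineages. RUNX1 and RUNX3 bind DNA as heterodimers with CBFβ, which has no DNA contact of its own, and GFI1 is a zinc finger repressor that recruits histone-modifying enzymes. In mouse T cells TGF-β is known to lower Gfi1, and GFI1 is known to repress Itgae and the ectonucleotidase genes. Whether these links acted in the present cultures was not tested. The cultures differ in both ligand and dose, which cannot be told apart here.

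There was 1 library for each culture, holding 30877656 (pTh17) and 33470161 (npTh17) counts over named genes, so no replicates stand behind the differences given and no test between conditions was possible. Ratios are given as log2 values of pTh17 over npTh17 CPM, and the ranges beside them are exact 95% Clopper-Pearson intervals, which cover counting error only. Where a ratio is set against 1, the value before taking log2 is meant. A ratio above 1 is then a log2 ratio above 0. Markers of CD4 T cells, 7 of 7 measured, summed to 2613 CPM in the pTh17 and 2634 CPM in the npTh17 library. Single markers differed in both directions, with Cd3e at −0.59 (−0.64 to −0.54) and Cd3g at −0.45, but Cd3d at 0.27 and Cd28 at 0.16. Markers of B cells, NK cells, macrophages, dendritic cells and neutrophils were all under 1 CPM, with Pax5, Ncr1, Adgre1, Csf1r, Flt3 and Mpo at 0 in both libraries. The myeloid integrin genes Itgam and Itgax had no count in the pTh17 library, against 24 and 20 counts in the npTh17 library, and the B cell receptor gene Cd79b had 11 counts in the pTh17 library and none in the npTh17 library. The part of such cells in the ratios was not tested. Of the CD8 T cell markers, which summed to 1.91 CPM in the pTh17 and 1.89 CPM in the npTh17 library, Cd8b1 passed 1 CPM. The red blood cell markers summed to 1.75 CPM and 2.33 CPM in the pTh17 and npTh17 libraries.

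The 8 genes did not move as a group. Gfi1, Runx3, Batf and Irf4 were higher in the pTh17 library, and Rora, Runx1, Maf and Cbfb were lower, where 49.4% of all genes were higher, although the small differences of Batf and Cbfb changed sign, to −0.0076 and 0.0053, once a trend of the ratio on transcript length and GC content was removed. Gfi1 was the 1 member at least 2-fold apart, a fold passed by 4.20% of all genes, 2.25% being higher in the pTh17 and 1.95% in the npTh17 library, and by 1.13% of the 7059 genes that averaged 20 CPM or more, a level that all 8 members exceeded. The median log2 ratio of the members was 0.037, against −0.0045 over all genes, while the median size of the ratio regardless of sign was 0.49 for the members and 0.20 for all genes, or 0.17 for genes averaging 20 CPM or more. The counting interval left out a ratio of 1 for all 8 members, but it did so for 66.9% of all genes and for 73.2% of those with a mean of at least 20 CPM, or for 55.0% of all genes when counts were halved to allow for mates of a pair being counted separately, so that at this depth a narrow interval away from 1 was the common case.

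**Figure D1:**
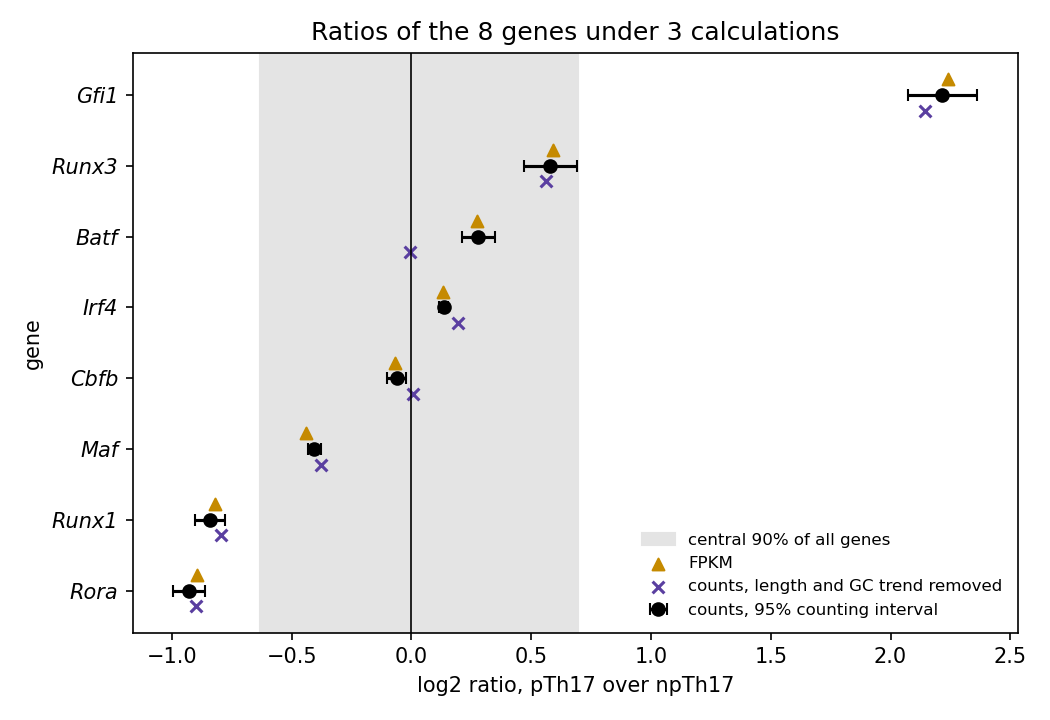
Each row is 1 of the 8 genes and the horizontal axis is the log2 ratio of the pTh17 over the npTh17 library, from counts with the 95% counting interval (circles), from FPKM (triangles) and from counts after removal of a transcript length and GC trend (crosses). The shaded band holds the central 90% of all genes, from −0.63 to 0.70, and Gfi1, Runx1 and Rora lie outside it by all 3 calculations.

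On the FPKM scale, which is per length of transcript and so allows levels of different genes to be compared, Irf4 was the most abundant member, at 320.0 FPKM in the pTh17 and 291.8 FPKM in the npTh17 library. It took 57.5% of the summed counts of the 8 genes in the pTh17 library and 50.7% in the npTh17 library. Batf, Cbfb and Maf formed a middle tier between 78.7 and 111 FPKM in the pTh17 library and between 92.2 and 107 FPKM in the npTh17 library. Within that tier Maf ranked number 4 of the 8 genes in the pTh17 library and number 2 in the npTh17 library, changing places with Batf. The lowest tier held Gfi1, Runx1, Runx3 and Rora, with Rora lowest in the pTh17 library and Gfi1 lowest in the npTh17 library. With 1 library each there is no spread to say whether neighbours in this order differ. In sum the 8 genes took 0.301% of counts in the pTh17 library and 0.310% in the npTh17 library.

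**Figure D2:**
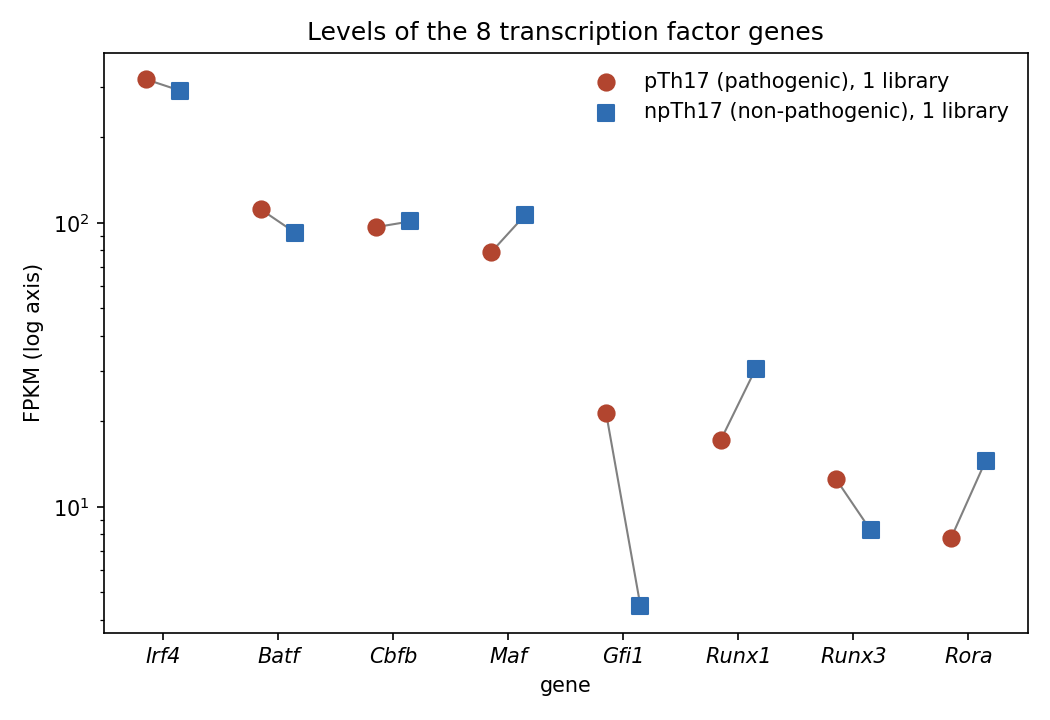
The vertical axis is FPKM on a log scale for each of the 8 genes, with the pTh17 library as circles on the left of each pair and the npTh17 library as squares on the right. Irf4 stands at the top in both libraries, and the steepest line joins the Gfi1 values of 21.5 and 4.47 FPKM.

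Gfi1 (ENSMUSG00000029275, mm10 chromosome 5, 107716657 to 107726036, minus strand), the repressor of the set, had 2096 counts in the pTh17 library, against 487 in the npTh17 library. This came to 67.8 CPM and 14.6 CPM in the pTh17 and npTh17 libraries, and to 21.5 and 4.47 FPKM. The pTh17 library was the higher one by every unit, at a log2 ratio of 2.22 (2.07 to 2.36) by counts and 2.24 by FPKM. Among all 10597 genes Gfi1 ranked number 32 from the highest ratio, and it ranked number 3 among those with a mean of at least 20 CPM. Of 4024 genes with a mean CPM within 2-fold of its own, 0.0497% had a ratio of larger size. The relative Gfi1b, which serves the red cell and platelet lineages, had no count in either library. In bulk RNA, more cells expressing a gene and more RNA per cell cannot be told apart, and this holds for every member.

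The region before the more upstream RefSeq start of Gfi1 is shown because Gfi1 carried the largest ratio of the set. The stretch is chr5:107725806-107725954 on the minus strand of GRCm38 (the assembly named mm10), 149 bases that end at the base before the start and lie outside the exons annotated by GENCODE M21, and the capitals mark the half-site of MAF proteins, TGCTGA. GENCODE places the gene start 231 bases before this RefSeq start, so the stretch lies inside the gene as GENCODE annotates it. It is upstream of the RefSeq start only.

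Gfi1 upstream stretch: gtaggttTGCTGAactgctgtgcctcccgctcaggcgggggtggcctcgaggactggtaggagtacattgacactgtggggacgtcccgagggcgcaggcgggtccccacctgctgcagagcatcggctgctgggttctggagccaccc

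Motifs were searched on both strands in the 250 bases before each RefSeq start, of which 10 windows belonged to 7 of the members. The MAF half-site was found in 16.1% of 32851 such windows genome-wide, so its presence before this RefSeq start of Gfi1 and also before Cbfb is a common event. The GFI1 core, AAATCA, which 12.4% of windows held, was in neither Gfi1 window. The other motifs searched were the ROR half-site AGGTCA (14.0% of windows), AP-1 TGANTCA (6.75%), IRF GAAANNGAA (7.13%), STAT TTCNNNGAA (7.02%) and FOXO GTAAACA (3.17%), and no member's window held any of these. The counts give no transcript-level values, and which of the 4 annotated Gfi1 transcripts was made was not analysed here.

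The lists of genes used from here on were chosen with earlier results of these data known. Their shares beside those of all genes are therefore description and not a test of enrichment. Of the genes reported as repressed by GFI1 in T cells or blood cells, 7 were measured beside Gfi1 itself, with a median log2 ratio of −0.23. In the pTh17 library 4 were lower and 3 higher, where 49.4% of all genes were higher. Itgae, which encodes the integrin chain CD103, had 23 counts in the pTh17 and 72 in the npTh17 library. This put the pTh17 library lower, with a log2 ratio of −1.50 (−2.28 to −0.84). By FPKM it was −1.15, drawn toward 0 by the pseudocount of 0.1 at levels of 0.165 FPKM (pTh17) and 0.490 FPKM (npTh17). The ectonucleotidase pair that converts extracellular ATP to adenosine was lower as well. Nt5e, encoding CD73, had 4510 counts in the pTh17 and 9705 in the npTh17 library, with a log2 ratio of −0.99 (−1.04 to −0.94). Entpd1, encoding CD39, had 222 counts in the pTh17 and 464 in the npTh17 library, with a log2 ratio of −0.95 (−1.19 to −0.72). Il7r, the IL-7 receptor gene, went the other way at 0.55 (0.31 to 0.80), on 325 counts in the pTh17 and 239 in the npTh17 library. Id2, an inhibitor of E proteins that was picked after its values were seen, was at 0.38 (0.29 to 0.47) by counts but at −0.04 by FPKM, so its direction depends on the unit. The enzymes and scaffolds through which GFI1 represses differed little between the libraries, apart from the scarce Ajuba transcript. Of 9 measured co-repressor genes, 4 had a ratio above 1, against 49.4% of all genes. None passed 2-fold, and the median log2 ratio was −0.022. The demethylase gene Kdm1a was at −0.17 (−0.24 to −0.11), the chromatin reader gene Zmynd8 at −0.22 (−0.29 to −0.15), Rcor2 at 0.27 (0.03 to 0.52) and the LIM protein gene Ajuba, on 42 counts in the pTh17 and 26 in the npTh17 library, at 0.78 (0.06 to 1.57).

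The paralogues Runx1 and Runx3 differed in opposite directions. Runx1 (ENSMUSG00000022952, chromosome 16, 92601466 to 92826149, minus strand), which is known to promote Il17 transcription in Th17 cells and to act with FOXP3 in regulatory T cells, had 3106 counts in the pTh17 and 6013 in the npTh17 library. Its level was lower in the pTh17 library, at 100.4 CPM against 179.9 CPM in the npTh17 library, a log2 ratio of −0.84 (−0.90 to −0.78) that was −0.82 by FPKM. Runx3 (ENSMUSG00000070691, chromosome 4, 135120652 to 135177990, plus strand), the factor that silences Cd4 in CD8 T cells and works with T-bet in Th1 cells, had 1620 counts in the pTh17 and 1171 in the npTh17 library. This was higher in the pTh17 library, at 52.4 CPM against 35.0 CPM in the npTh17 library, a log2 ratio of 0.58 (0.47 to 0.69) that was 0.59 by FPKM. A ratio of larger size was found in 6.38% of all genes for Runx1 and in 13.2% for Runx3. Among genes with a mean CPM within 2-fold of each, the shares were 1.78% for Runx1 and 7.13% for Runx3.

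The make-up of the RUNX family therefore differed between the libraries. Runx1 gave 57.4% of the summed RUNX FPKM in the pTh17 library and 77.5% in the npTh17 library, and Runx3 gave 41.7% and 21.0% in the pTh17 and npTh17 libraries. The quotient of Runx1 over Runx3 FPKM was 1.38 in the pTh17 library and 3.69 in the npTh17 library. Runx2, the bone factor of the family, was a trace at 0.278 FPKM in the pTh17 and 0.563 FPKM in the npTh17 library. On 64 counts in the pTh17 and 139 in the npTh17 library, its log2 ratio was −0.996 (−1.46 to −0.57). Summed over the 3 genes, RUNX counts were 4790 in the pTh17 and 7323 in the npTh17 library, a log2 ratio of −0.50 (−0.55 to −0.45).

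**Figure D3:**
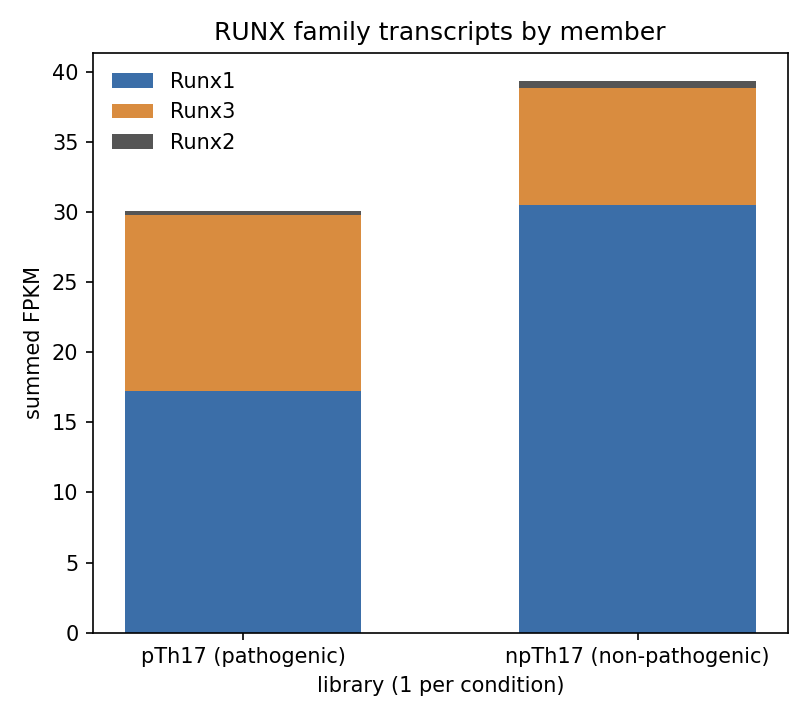
Bars give the summed FPKM of the 3 RUNX genes in the pTh17 library (left) and the npTh17 library (right), divided by gene. The pTh17 bar reaches 30.1 FPKM and the npTh17 bar 39.4 FPKM, and the Runx3 segment is the larger of its pair in the pTh17 library.

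Cbfb (ENSMUSG00000031885, chromosome 8, 105170674 to 105217989, plus strand), the shared partner of the RUNX proteins, had 9819 counts in the pTh17 and 11072 in the npTh17 library. The libraries were close, at 96.6 FPKM in the pTh17 and 101 FPKM in the npTh17 library, with a log2 ratio of −0.061 (−0.10 to −0.022) that 83.5% of all genes exceeded in size. Cbfb exceeded the summed RUNX genes 3.21 times on the FPKM scale in the pTh17 library and 2.57 times in the npTh17 library.

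Regions before 3 RUNX starts are shown to set the paralogues side by side, since their ratios had opposite signs. They are the distal start of Runx3 (chr4:135120395-135120644, plus strand), the proximal start of Runx3 (chr4:135152295-135152495, plus strand) and the distal start of Runx1 (chr16:92826150-92826324, minus strand), with bases in GENCODE exons left out. Capitals mark the RUNX motif TGTGGT, read on the other strand as ACCACA, and the palindromic SMAD box GTCTAGAC.

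Runx3 distal: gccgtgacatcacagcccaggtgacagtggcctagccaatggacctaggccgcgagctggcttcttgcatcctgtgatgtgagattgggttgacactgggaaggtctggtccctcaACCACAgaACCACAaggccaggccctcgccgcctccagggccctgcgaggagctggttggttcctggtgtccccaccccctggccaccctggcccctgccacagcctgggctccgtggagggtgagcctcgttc

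Runx3 proximal: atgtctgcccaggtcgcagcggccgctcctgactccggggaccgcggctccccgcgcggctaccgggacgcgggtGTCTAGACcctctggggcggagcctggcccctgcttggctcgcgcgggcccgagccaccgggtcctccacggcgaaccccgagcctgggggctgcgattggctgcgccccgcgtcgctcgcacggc

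Runx1 distal: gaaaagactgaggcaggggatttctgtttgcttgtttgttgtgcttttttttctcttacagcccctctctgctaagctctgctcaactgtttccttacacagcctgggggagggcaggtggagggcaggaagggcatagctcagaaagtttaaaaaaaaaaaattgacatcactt

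The distal Runx3 stretch held the RUNX motif 2 times, separated by a short spacer, and the window before Batf held it 2 times as well, while 14.0% of all windows held it at least once. The proximal Runx3 stretch held 1 SMAD box, a sequence found in 0.167% of all windows. The box is longer than the RUNX motif, and a longer motif matches less often, so the 2 shares are not on a like footing. None of the 9 motifs searched was found in either Runx1 window or in the windows of Rora and Irf4. A match describes the letters and is not evidence of binding, and these data hold no measure of binding or of start site use.

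Of 9 measured genes reported as controlled by RUNX and CBFβ, 6 had a ratio above 1, against 49.4% of all genes. The median log2 ratio was 0.34. At least 2-fold higher were 2 in each library, against 2.25% of all genes in the pTh17 and 1.95% in the npTh17 library. Il2, which encodes the T cell growth factor, had 988 counts in the pTh17 and 206 in the npTh17 library, a log2 ratio of 2.37 (2.16 to 2.60). Foxp3, the regulatory T cell factor gene whose upkeep needs RUNX and CBFβ, had 1181 counts in the pTh17 and 3026 in the npTh17 library, a log2 ratio of −1.24 (−1.34 to −1.15). Prf1, the perforin gene, was at 1.05 (0.34 to 1.86) on 47 counts in the pTh17 and 24 in the npTh17 library. By FPKM it was at 0.80, a ratio drawn toward 0 by the pseudocount of 0.1. Its levels were 0.533 FPKM in the pTh17 and 0.264 FPKM in the npTh17 library. Cd4 itself, a gene that Runx3 silences in CD8 T cells, had 6886 counts in the pTh17 and 7683 in the npTh17 library, a log2 ratio of −0.046 whose interval included 0, and it was picked for mention after its value was seen. Of 9 measured RUNX co-repressors and modifiers, 7 had a ratio above 1, as did 49.4% of all genes, none passed 2-fold and the median was 0.11. The Groucho family genes Tle1 and Tle4 stood at 0.44 (0.28 to 0.60) and −0.26 (−0.40 to −0.12), the kinase gene Hipk2 at 0.35 (0.25 to 0.45) and the acetyltransferase gene Crebbp at −0.25 (−0.33 to −0.18).

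Rora (ENSMUSG00000032238, chromosome 9, 68653786 to 69388246, plus strand) had the lowest ratio of the set. It had 2751 counts in the pTh17 library, against 5661 in the npTh17 library, which came to 7.76 FPKM and 14.5 FPKM in the pTh17 and npTh17 libraries. The pTh17 library was the lower one, with a log2 ratio of −0.93 (−0.995 to −0.863) by counts, −0.89 by FPKM and −0.90 with the length and GC trend removed. Rora ranked number 249 from the lowest ratio among all genes and number 52 among those with a mean of at least 20 CPM. At 10878 bases its longest annotated transcript is the longest of the set, and with more counts than Gfi1 in both libraries Rora still had the lower FPKM of the pair in the pTh17 library. The quotient of Gfi1 over Rora FPKM was 2.77 in the pTh17 library and 0.308 in the npTh17 library, so the order of the repressor and the receptor was reversed.

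Of 10 listed ROR target genes of Th17 cells, 6 were measured, with a median log2 ratio of 0.17. Of these, 4 had a ratio above 1 and 2 below, where 49.4% of all genes were above 1. The IL-23 receptor gene Il23r had 395 counts in the pTh17 and 115 in the npTh17 library, a log2 ratio of 1.88 (1.59 to 2.20). Ccr6, the chemokine receptor of Th17 cells, was lower in the pTh17 library, on 131 counts in the pTh17 and 250 in the npTh17 library, at −0.82 (−1.14 to −0.51). Its ligand gene Ccl20 was at 0.42 (0.03 to 0.83), and the cytokine gene Il17f at −0.58 (−0.61 to −0.54). Il17a, picked after its value was seen, went the other way from Il17f at 0.34 (0.07 to 0.62). It had 243 counts in the pTh17 and 207 in the npTh17 library. Il22 had 8 counts in the pTh17 library and none in the npTh17 library.

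Maf (ENSMUSG00000055435, chromosome 8, 115682942 to 115707794, minus strand) had 16364 counts in the pTh17 and 23413 in the npTh17 library. The pTh17 library was lower, at 78.7 FPKM against 107 FPKM in the npTh17 library, with a log2 ratio of −0.40 (−0.43 to −0.38) that lay inside the central 90% of all genes. Among its relatives, Nrl had no count in either library, and Mafa had 9 in the pTh17 and 4 in the npTh17 library. The small MAF genes, which lack an activation domain, were measured in both. Mafk, picked after its value was seen, was at 0.28 (0.19 to 0.36).

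Batf (ENSMUSG00000034266, chromosome 12, 85686669 to 85709087, plus strand) had 3755 counts in the pTh17 and 3344 in the npTh17 library. Its level was slightly higher in the pTh17 library, at 111 FPKM against 92.2 FPKM in the npTh17 library, with a log2 ratio of 0.28 (0.21 to 0.35). Batf has the shortest transcript of the set, at 955 bases, and the trend of all genes at its length and GC content was 0.29 toward the pTh17 library. Once this trend was removed, the log2 ratio of Batf was −0.0076, so its difference was of the size of that trend. The relatives Batf2 and Batf3 had no count in either library.

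Irf4 (ENSMUSG00000021356, chromosome 13, 30749226 to 30766976, plus strand) had 53522 counts in the pTh17 and 52693 in the npTh17 library. The pTh17 library was higher by a small step, with a log2 ratio of 0.13 (0.12 to 0.15) that 64.4% of all genes exceeded in size. Irf4 made up 71.8% of the summed FPKM of the 9 IRF genes in the pTh17 library and 66.5% in the npTh17 library. Irf8, which also pairs with BATF and is second in the family, was lower in the pTh17 library at 49.4 FPKM, against 70.6 FPKM in the npTh17 library, a log2 ratio of −0.52 (−0.57 to −0.46). Irf9, a subunit of the interferon response complex, was at −0.31 (−0.45 to −0.17). Of 23 listed relatives of the members, 13 were measured, with 7 ratios above 1 and 6 below, where 49.4% of all genes were above 1. None was past 2-fold by counts, where Runx2 came nearest at −0.996, and the median log2 ratio was 0.021. The quotient of Irf4 over Batf FPKM was 2.87 in the pTh17 and 3.17 in the npTh17 library.

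The AP-1 genes, of the JUN family that BATF pairs with and of the FOS family, went both ways. Of 7 measured genes of both families, 4 had a ratio above 1, against 49.4% of all genes. None passed 2-fold, and the median log2 ratio was 0.26. Fosl2, which limits Th17 plasticity, was at 0.50 (0.44 to 0.55) and Junb, the main JUN partner of BATF in Th17 cells, at 0.44 (0.40 to 0.48), on 11148 counts in the pTh17 and 8873 in the npTh17 library. Jun was lower in the pTh17 library at −0.48 (−0.58 to −0.39), and Fosb, at −0.40 (−1.05 to 0.23), did not differ beyond counting error. With the length and GC trend removed, Junb was at 0.30.

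Of 10 measured genes listed as targets of MAF, BATF and IRF4, 7 had a ratio above 1, against 49.4% of all genes, with a median of 0.38. At least 2-fold higher were 2 in the pTh17 and 1 in the npTh17 library, against 2.25% and 1.95% of all genes. The cytokine genes Il10 and Il21, both known to depend on c-MAF, differed in opposite directions. Il10 had 153 counts in the pTh17 and 366 in the npTh17 library, a log2 ratio of −1.14 (−1.43 to −0.87). Il21 had 14186 counts in the pTh17 and 8031 in the npTh17 library, a log2 ratio of 0.93 (0.89 to 0.97). Prdm1, the gene of the repressor BLIMP1, was low, at 86 counts in the pTh17 and 41 in the npTh17 library, with a log2 ratio of 1.16 (0.63 to 1.75) that was 0.88 by FPKM. Il4 had 4 counts in the pTh17 library and none in the npTh17 library.

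**Figure D4:**
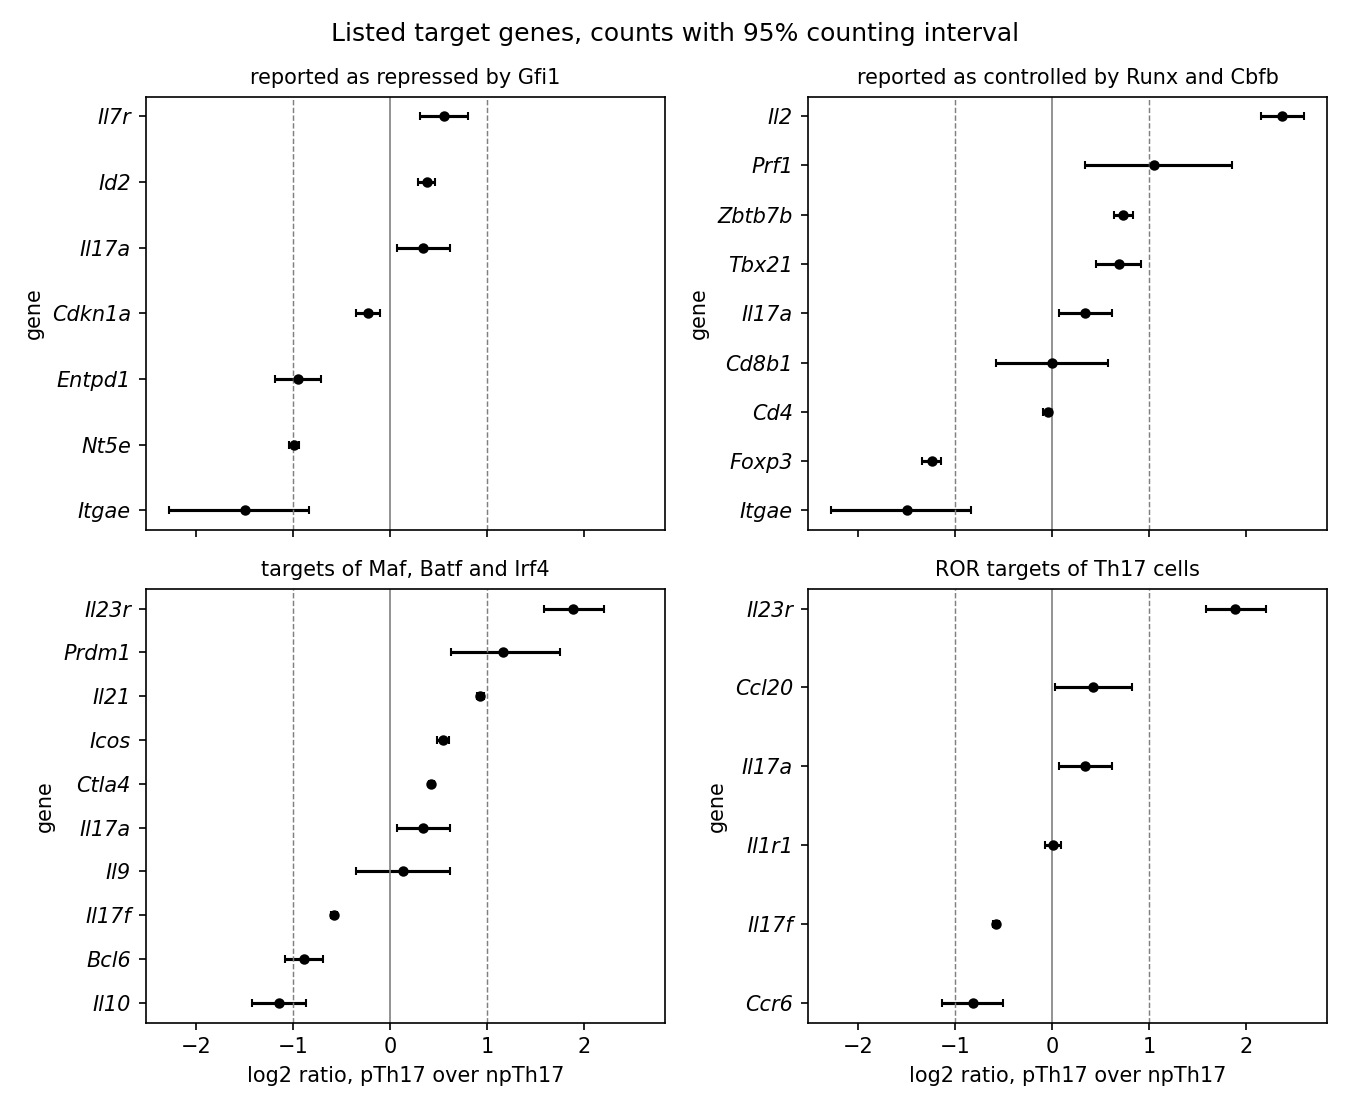
The 4 panels give the log2 ratio of the pTh17 over the npTh17 library, with the 95% counting interval, for measured genes of 4 lists of target genes, some of which stand in more than 1 list. Dashed lines mark 2-fold, and every panel holds genes on both sides of 0, from Il2 at 2.37 to Itgae at −1.50.

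Among 29 other measured factors of the Th17 network, 15 had a ratio above 1 and 14 below, where 49.4% of all genes were above 1. The median was 0.058. At least 2-fold higher were 1 in the pTh17 and 2 in the npTh17 library, against 2.25% and 1.95% of all genes. The first of these was Prdm1, and the others were Foxp3 and Gata3, the Th2 factor, which was at −1.05 (−1.93 to −0.30) on 20 counts in the pTh17 and 46 in the npTh17 library. By FPKM Gata3 was at −0.79 and Prdm1 at 0.88, but the pseudocount of 0.1 draws ratios of such low values toward 0. Without it, the Gata3 values of 0.173 FPKM (pTh17) and 0.372 FPKM (npTh17) were more than 2-fold apart. So were the Prdm1 values of 0.460 FPKM (pTh17) and 0.204 FPKM (npTh17). Bhlhe40, a helix-loop-helix factor of inflammatory T cells, was at 0.99 (0.91 to 1.06). By closeness of the single log2 ratio that these 2 libraries allow, the listed genes averaging 5 CPM or more that came nearest to Gfi1 were Il2, Il23r and Bhlhe40, whose log2 ratios differed from that of Gfi1 by 0.15, −0.33 and −1.23, so the third was far from alike. Those nearest to Rora were Entpd1 at −0.95, Bcl6, the follicular helper factor gene, at −0.88 and Nt5e at −0.99.

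**Figure D5:**
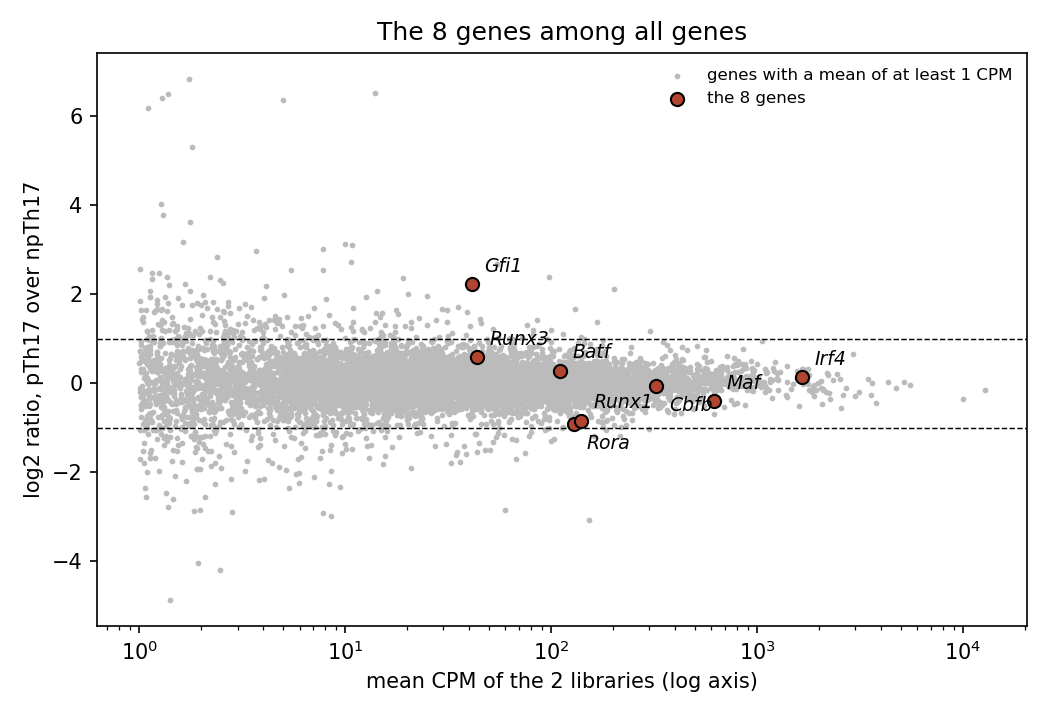
Each grey point is 1 of 10597 genes, with the mean CPM of the 2 libraries on a log horizontal axis and the log2 ratio of the pTh17 over the npTh17 library on the vertical axis, and dashed lines at 2-fold. The 8 transcription factor genes are marked, and Gfi1 is the one beyond a dashed line while Rora and Runx1 lie just inside the lower one.

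The count and FPKM tables gave closely similar ratios for the 8 genes, with differences between −0.037 and 0.036 on the log2 scale. Over all genes the central 90% of such differences ran from −0.11 to 0.13. Antisense genes annotated by GENCODE overlap exons of Rora over 82 bases, of Maf over 440 bases and of Runx1 over 106 bases, and a transcript on the other strand overlaps Gfi1 over 101 bases. The labels describe no strand-marking step, so reads from these short overlaps cannot be assigned to a strand.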

How the data were processed

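The authors deposited whole-number counts per gene and FPKM values (fragments scaled to transcript length and depth), and per the file headers each library has 1 column. Per the submitters' processing notes, mm10 was the genome build. The aligner, counting tool, annotation and strand setting were not given in the sources used here. Per the labels' protocols, polyadenylated RNA was fragmented and copied from random primers.

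Unnamed features, holding 2.50% (pTh17) and 2.90% (npTh17) of all counts, were left out. Library sizes over named genes were scaled by TMM in edgeR 4.0.16. Log2 ratios used a prior count of 1, and intervals are exact at 95%. Without molecular identifiers PCR copies are counted as separate molecules, and counts of 2 were 3.88 and 4.57 times as frequent as counts of 1 in the pTh17 and npTh17 libraries, so intervals can be too narrow. No test was run with 1 library per group. FPKM ratios used a pseudocount of 0.1. Symbols, positions, lengths and GC content came from GENCODE M21, and windows before starts from RefSeq (GRCm38.p6). The calculations were checked on simulated counts drawn independently, without the excess of counts of 2 seen here. That check cannot show that the intervals hold for these libraries.

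The members and lists were chosen with earlier results of these data known. Named are all members and, from each other list, up to 4 measured genes with the largest ratios in size, target genes with a count of 0 in a library, and the 3 genes nearest in ratio to Gfi1 and to Rora. Relatives with few or no counts, Cd8b1 and the other cell type markers, Id2, Il17a, Cd4 and Mafk fall outside this rule and were picked after their values were seen. One relative that meets it is not reported here. Alternatives changed the scaling (DESeq2 1.42.0 size factors, upper quartile, total counts, all features), prior count, filter, unit, and a length and GC trend.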

Additional observations from a re-analysis of the deposited data

How the results depend on the processing

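Under every scaling tried, a prior count of 5 and both FPKM pseudocounts, all 8 members kept the sign of their log2 ratio, and Gfi1 was the single member past 2-fold, with log2 ratios between 2.04 and 2.24 over these settings and the length and GC trend. With that trend removed, 2 members changed sign, Batf at −0.0076 and Cbfb at 0.0053, the median of the members was −0.0012, and 6 intervals left out a ratio of 1 in place of 8. For Batf the trend itself was 0.29 at its length and GC content. Ratios ran from −0.93 to −0.82 for Rora, from −0.84 to −0.79 for Runx1, from −0.44 to −0.38 for Maf, from 0.54 to 0.60 for Runx3 and from 0.13 to 0.19 for Irf4. With upper-quartile factors 7 intervals left out a ratio of 1. With counts halved, an alternative chosen after seeing the data, all 8 did, against 55.0% of all genes. The number of genes at least 2-fold apart depends on the filter, with 96 higher in the pTh17 and 101 in the npTh17 library at a minimum mean of 5 CPM, and 1192 and 1136 in the pTh17 and npTh17 libraries with no filter; the cause was not tested. No paired analysis was possible because each group has 1 library, and for the same reason no replicate could be left out. FPKM values carry no counts, so no interval was computed for them.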
